A study of Mus musculus with 6 samples.

Results

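Cluster 10 is one of 11 groups of cells in a single-cell RNA sequencing study of CD8 T cells from mouse tumours. Its members were the cells that carry the number 10 in the cluster column of the cell annotation the authors deposited, with no further choice. It held 1137 of 26698 cells (4.26%, 95% exact binomial interval 4.02% to 4.51%). The hosts were wild-type C57BL/6 mice of both sexes, 6 weeks old at inoculation by the protocol and 6 to 8 weeks old by the age label. Each had 500000 cells of MB49, a mouse urothelial carcinoma line, placed under the skin. Tumours were digested on day 10, and the sort for live CD3+ CD8+ CD4- cells was followed by 10x Genomics 3' library preparation. The labels name no drug, transgene or gene deletion in either sex, so sex is the only contrast. There were 3 libraries from females (numbered 2, 5 and 6 in the cell names) and 3 from males (1, 3 and 4). The labels call the samples of a sex biological replicates and do not say whether an animal or a pool of animals stands behind each, so the p-values measure the spread between these libraries.

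CD8 T cells recognise antigen through the T cell receptor and the CD8 coreceptor and kill with granzymes and perforin. In tumours they pass from stem-like cells, which keep the transcription factor TCF-1 (encoded by Tcf7) and the receptor Slamf6, to exhausted cells, which carry inhibitory receptors such as PD-1 and TIM-3. Droplet methods count transcripts as unique molecular identifiers (UMIs), and barcodes with few UMIs and a large part of them from the mitochondrial genome are commonly filtered out before analysis. Cluster 10 is therefore described here by class of RNA as well as by gene.

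The cells came with the working name of low-UMI mixed CD8 T cells and 3 marker genes, Tcf7, Slamf6 and mt-Co1, and the data bore that name out only in part. Levels below are counts summed over the cells of a cluster in a library and scaled to CPM (counts per 1000000), with mean ± SD over 6 libraries. Tcf7 was at 84.1 ± 43.9 CPM in cluster 10, below clusters 2 (342), 7 (333), 9 (161) and 1 (154) and above the other 6. The lowest, median and highest library of cluster 10 had 30.02, 95.7 and 125 CPM of Tcf7. Slamf6 was at 101 ± 43.5 CPM (72.5, 82.8 and 186), below cluster 1 (122) and cluster 7 (104). The libraries of cluster 10 overlapped those of cluster 6 for both genes, since cluster 6 ran from 4.75 to 47.6 CPM for Tcf7 and from 55.7 to 131 CPM for Slamf6. mt-Co1, a mitochondrially encoded subunit of cytochrome c oxidase, was at 40913 ± 9304 CPM, second to cluster 6 (46063), while the other 9 clusters lay between 7351 and 9774 CPM. None of the 3 markers was highest in cluster 10. The cluster is called by its number here, and so are the others.

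The genes that define CD8 T cells were present, at levels from high to low among the clusters. Ptprc, which encodes the pan-leukocyte phosphatase CD45, was at 1974 ± 363 CPM, second of the 11 clusters, against 3789 in cluster 6. Cd8a was at 657 ± 131 CPM (1581 in cluster 6, and 237 in cluster 2, the lowest), and ranked 6 of 11. Cd8b1, the other CD8 chain, was at 521 ± 110 CPM and ranked 9 of 11. Cd3e, a signalling chain of the T cell receptor complex, was at 271 ± 41.2 CPM and also ranked 9. To compare cells at 1 total depth, each cell was thinned to 1000 UMIs, mitochondrial ones included, which left out 139 of the 1137 cells. At that depth 44.5 ± 6.23% of cluster 10 cells had a UMI of Cd8a (70.6% in cluster 6 and 17.2% in cluster 2) and 34.4% one of Cd8b1. Tcf7 had a UMI in 7.86 ± 4.53% of cluster 10 cells, against 0.480% in cluster 8, the cluster with the least Tcf7, and 30.8% in cluster 2. Slamf6 had one in 8.34 ± 2.81%, against 1.9% in cluster 8. All of these shares are at 1000 UMIs per cell, and without thinning the median cluster 10 cell held 1461. Mitochondrial UMIs made up 24.7% of the UMIs in cluster 10, 30.6% in cluster 6 and 4.01% to 4.98% in the others. The depth left for other genes was therefore lower in clusters 10 and 6 than elsewhere.

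Low depth was the plainest property of the cluster. The median cluster 10 cell had 1461 UMIs (10th to 90th percentile 967 to 2803) and 694 genes, against 1742 UMIs and 741 genes in cluster 6. By library the median was 1582, 1579 and 1641 UMIs in females and 1320, 1572 and 1416 in males. The medians of the other 9 clusters ran from 5345 in cluster 1 to 23988 in cluster 3. The mitochondrial share of a cell's UMIs had a median of 20.3% (10th to 90th percentile 4.61% to 41.4%), against 30.03% in cluster 6 and 3.70% to 4.94% in the other 9. The spread was wide: 303 cells (26.6%) were under 10% mitochondrial, 527 (46.4%) between 10% and 30%, and 307 (27.0%) at 30% or more, while cluster 6 had 4.08% of its cells under 10% and 50.05% at 30% or more. These bounds were chosen after the data were seen. Cluster 10 made up 3.47% to 4.71% of every library, and its sums held 199900 to 526833 UMIs per library. In all, 9 of its cells (0.792%, against 0.633% of all cells) had a barcode that also occurred in another library, in 8 of the 9 with fewer UMIs than the other cell.

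**Figure D1:**
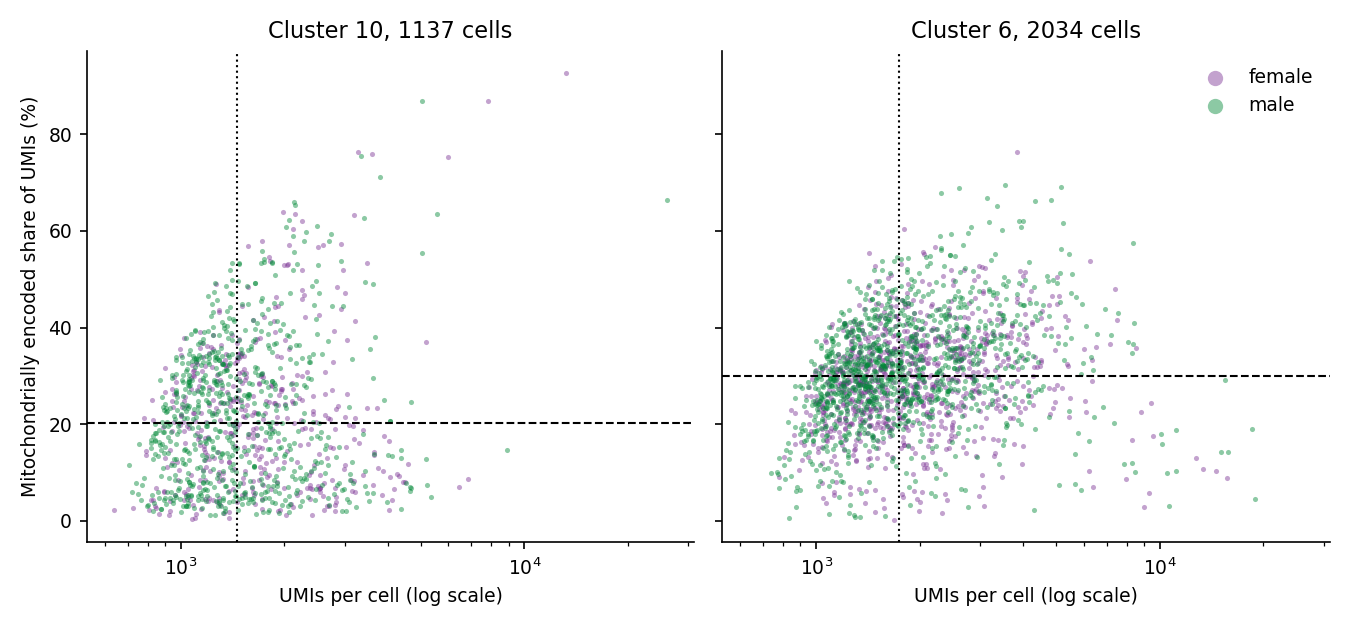
Mitochondrial share (percent of a cell's UMIs) against UMIs per cell (log scale) for each cell of cluster 10 and cluster 6, coloured by the sex of the host. Cluster 10 reaches from under 10% (303 cells) to 30% or more (307 cells), while 50.05% of cluster 6 cells are at 30% or more.

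Counted per cell, cluster 10 had as many mitochondrial UMIs as several deep clusters, and fewer ribosomal protein UMIs and fewer of Malat1 and Neat1 than all clusters but cluster 6. It held 448 ± 123 mitochondrial UMIs per cell (309 to 659 by library), within the means of cluster 1 (306), cluster 9 (328), cluster 2 (337), cluster 7 (424) and cluster 0 (461). Cytoplasmic ribosomal protein transcripts were at 305 ± 67.2 UMIs per cell (209 to 391.9), above cluster 6 (180) and far below the other 9 clusters (1960 to 7891). Malat1 and Neat1, long non-coding RNAs that stay in the nucleus, were at 51.7 UMIs per cell, against 35.7 in cluster 6 and 92.6 to 160 elsewhere. As a share of all UMIs, Malat1 with Neat1 made up 2.86 ± 0.28% in cluster 10, the highest of the 11 clusters (1.58% in cluster 6, 0.519% to 1.59% in the other 9). Ribosomal protein transcripts made up 16.9% of the UMIs, between cluster 6 (8.01%) and the other clusters (27.8% to 43.3%).

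**Figure D2:**
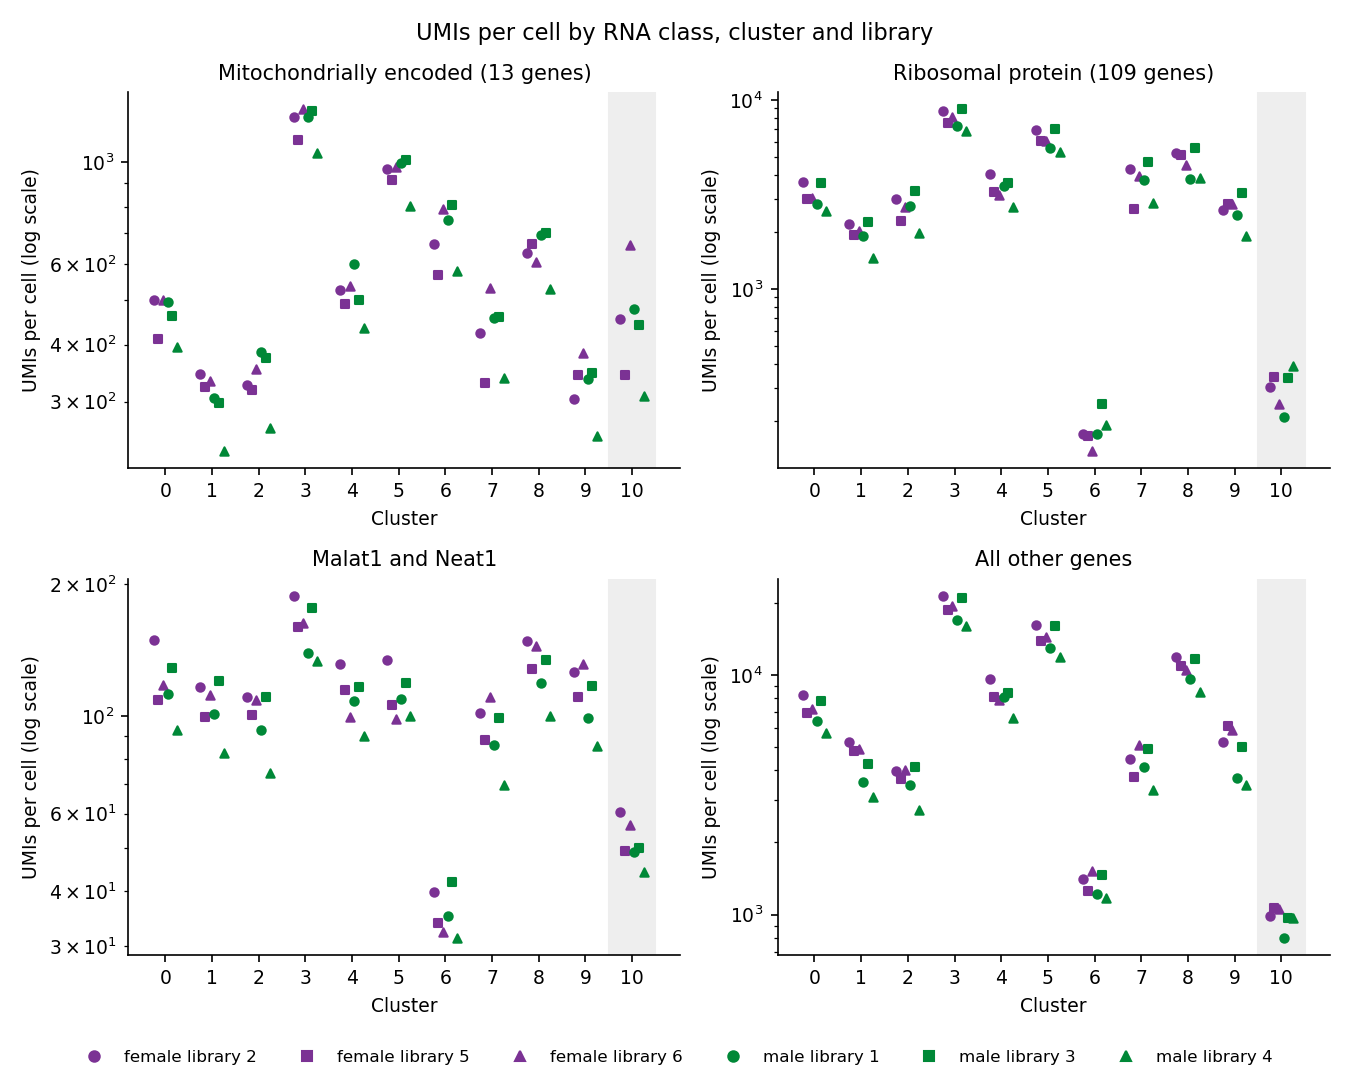
UMIs per cell (log scale) in 4 RNA classes for the 11 clusters, 1 point per library, with cluster 10 shaded. The cluster 10 points lie among those of the deep clusters for mitochondrial RNA and below all of them for ribosomal protein RNA, where they overlap cluster 6 (209 in the lowest library of cluster 10).

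Another group of transcripts had its highest share in cluster 10. Gm42418, AY036118 and Gm26917 are gene models that lie together on chromosome 17 (Gm42418 at 39846958 to 39848788 on the plus strand, overlapping AY036118 on the minus strand, and Gm26917 at 39843013 to 39846341, mm10, GENCODE M21). Lars2 encodes the mitochondrial leucyl-tRNA synthetase. The 4 together were at 31.1 ± 13.1 UMIs per cell in cluster 10, 11.4 in cluster 6 and 19.6 to 62.7 in the other 9 clusters, and took 1.71 ± 0.677% of the UMIs against 0.496% in cluster 6 and 0.221% to 0.310% in the other 9. Gm42418 had 9253, 12175 and 24437 CPM in the lowest, median and highest library of cluster 10, against 3271, 4095 and 5945 in cluster 6, with no overlap. Lars2 had 268, 398 and 744 CPM against 115, 140.3 and 221, also with no overlap. Malat1 (chromosome 19, 5795690 to 5802672) had 25405 to 32496 CPM in cluster 10, and the highest cluster mean elsewhere was 15723, in cluster 1. Since overlapping genes on opposite strands can share reads where the counting does not use strand, and the counting is not given in the sources used here, Gm42418 and AY036118 are uncertain one by one.

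Cluster 10 was then set against the median of the other 10 clusters within each library. Since the authors' clusters were built from these genes, every comparison between clusters is a description with no test. A gene was counted as past the fold where the mean log2 ratio, with 10 CPM added to both sides, was at least 1 in size and all 6 libraries lay on 1 side. Of 2990 genes, 87 (2.91%) were past the fold upward and 219 (7.32%) downward, with a median log2 ratio of -0.017. With the 13 mitochondrially encoded genes taken out of the totals, which moved that median to 0.277, the counts were 415 upward and 35 downward, so the balance of the 2 directions depended on the scaling. All 13 mitochondrially encoded genes were past the fold. Outside gene models, the highest ratios belonged to mt-Co3 (2.52 on the log2 scale), Lars2 (2.51 ± 0.55), mt-Co2 (2.51), mt-Atp6 (2.51) and mt-Nd2 (2.46), and the gene model Gm42418 was at 2.63. Against cluster 6 alone, all 13 had a lower mean level in cluster 10, with a median log2 ratio of -0.37 and none past the fold.

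Among the genes lowest against the median of the others, Ndufa8, a complex I subunit, was at 41.4 CPM against a median of 129 (log2 ratio -1.58). Mpc1, a subunit of the mitochondrial pyruvate carrier, had a log2 ratio of -1.56, and Slc25a5, an ADP/ATP carrier, of -1.54. Btf3, a factor of the nascent polypeptide complex, was at 408 CPM against 1146 (-1.54), Rps2 at 1731 against 4728 (-1.47) and Rpl15 at 478 against 1347 (-1.49). Ccl3, a chemokine, had -1.48, and Gzma, granzyme A, -1.47. The nuclear-encoded oxidative phosphorylation list, with 34 genes measured at 50 CPM or more, was below the median of the others in 34, with 14 past the fold and a median of -0.93. The ribosomal protein list was below in 36 of 37 (10 past the fold, median -0.84), and the actin, tubulin and housekeeping list in 19 of 19 (8 past the fold, median -0.86). Without mitochondrial genes in the totals these medians were -0.60, -0.49 and -0.57, and 2, 2 and 0 genes were past the fold downward. The stem-like list went the other way, with 7 of 9 above the median of the others (2 past the fold, median 0.40), as did the naive and central memory list with 8 of 10 (3 past the fold, median 0.49). The nuclear long non-coding RNA list was above in 6 of 7 (4 past the fold, median 1.30). Medians of the T cell identity list (-0.14) and the exhaustion list (-0.06) changed sign without mitochondrial genes, to 0.19 and 0.28.

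The closest comparison is that with cluster 6, the other cluster of low UMIs and high mitochondrial share. Of 3045 genes, 210 (6.9%) were past the fold upward in cluster 10 and 477 (15.7%) downward, around a median of 0.28. Without mitochondrial genes in the totals the counts were 171 and 636, around a median of 0.18. Differences between the clusters in depth and mitochondrial share stand above, and their part in these ratios was not tested beyond the scaling. The 12 genes lowest against cluster 6 held 6 granzymes. Gzmf, on chromosome 14 (56205263 to 56211417), had 81.6, 139 and 312 CPM in the lowest, median and highest library of cluster 10 and 1768, 3507 and 9101 in cluster 6 (log2 ratio -4.48 ± 0.22). Gzmd (-4.38), Gzmc (-3.89), Gzme (-3.75), Gzmb (-3.22) and Gzma (-2.99) followed. No library of one cluster overlapped one of the other for any of these 6.

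Granzyme B, the most abundant of them, was at 2086, 2107 and 1410.3 CPM in the female libraries of cluster 10 and 1092, 1246 and 1262 in the male ones. In cluster 6 Gzmb was at 23261, 13442 and 13841 CPM in females and 10099.6, 17246 and 9511 in males. Every cluster 6 library was above every cluster 10 library. At 1000 UMIs per cell, Gzmb had a UMI in 54.4% of cluster 10 cells, 84.1% of cluster 6 cells and 25.5% of the cells of cluster 7, which had the least Gzmb, and the part of free RNA in these shares was not tested. Ifng, the cytokine interferon gamma, was at 240.1, 289.9 and 229 CPM in the female and 159, 148 and 211 CPM in the male libraries of cluster 10, against 2279 to 5545 CPM in cluster 6 (log2 ratio -3.73). Ccl3 (-2.98) and Ccl1 (-3.41, on 10 UMIs in cluster 10) are chemokines and were lower too. Ccl5, a chemokine of memory and effector T cells, went the other way in 6 of 6 libraries, with a mean of 3772 CPM in cluster 10 and 1392 in cluster 6 (log2 ratio 1.38), though the lowest library of cluster 10 (1854) was below the highest of cluster 6 (2279). Of the effector and cytotoxicity list, 16 of 23 genes were past the fold downward and 1, Ccl5, upward, with a median log2 ratio of -1.93.

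The 12 lowest genes also held Pdia6, Manf and Top2a. Pdia6, a disulfide isomerase of the endoplasmic reticulum, was at 57.2 CPM against 567 (-3.17), and Manf had a log2 ratio of -2.82. Of the heat shock list, Hspa5, a chaperone of the same compartment, was lowest, at 486 against 1662 CPM (-1.78). Top2a, the topoisomerase of dividing cells, was at 50.1 against 420 CPM (-2.89). All 17 genes of the proliferation list were lower than in cluster 6, with 9 past the fold, among them Mki67 (81.5 ± 25.1 CPM against 394), Cenpf (-2.14) and Rrm2 (-2.12). Cluster 3 held the most Mki67, 609.8 CPM. The exhaustion list had 9 of 13 past the fold downward and a median of -1.61, with Tnfrsf9 (385 against 1711 CPM), Ctla4 (-1.96), Nrp1 (-1.94) and Cd160 (-1.89) the furthest. Havcr2, which encodes TIM-3, was at 288 against 965 CPM. Of the T cell identity list, 11 of 12 genes were lower and 6 past the fold, with Cd3g at 768 against 3517 CPM (-2.17), Cd2 at -1.61 and Thy1 at -1.52.

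Above cluster 6 stood ribosomal protein genes and genes of varied function. Over all cells, all 37 measured genes of the ribosomal protein list were higher and 20 past the fold (14 without mitochondrial genes in the totals), with a median log2 ratio of 1.01. Rpl13a (1.56), Rpsa (1.48), Rps27 (1.38), Rpl41 (1.32) and Rpl36 (2129 against 655 CPM, 1.66) were among them. Cytoplasmic housekeeping genes were higher in 16 of 18, with Tmsb10 (1.34), Gapdh (1.31) and Pfn1 (1.17) past the fold, and B2m, the light chain of MHC class I, was lower (-1.40). Dusp5, a phosphatase that acts on ERK, was at 336 ± 64.9 against 101 ± 34.4 CPM (1.68), Ifi27l2a, an interferon-induced gene, at 289 against 77.8 (1.74), and Ucp2, an uncoupling protein of the inner mitochondrial membrane, at a log2 ratio of 1.57. No library of cluster 10 overlapped one of cluster 6 for these 3. Of the stem-like list, Tcf7 alone was past the fold upward (1.51), Xcl1 was past it downward (-1.84), Eomes had 0.85 and Ccr7 -0.81. Klf3 (1.23) and S1pr1 (1.20), which mark circulating naive and memory cells, were past the fold in the naive and central memory list, and Ly6c2 was past it downward (-1.15).

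In each of the remaining lists at most 6 genes were past the fold against cluster 6. Over all 3045 genes the shares were 6.9% upward and 15.7% downward, around a median of 0.28, and several of these lists lay near that background. Interferon-stimulated genes had 1 of 8 past the fold upward (Trim30a, 1.27) and 1 downward (Bst2, -1.03), with a median of 0.67. Genes of the T cell receptor response had 1 of 16 upward and 4 downward (median -0.49), with Tnfrsf4, the costimulatory receptor OX40, furthest at -2.5. Nuclear-encoded oxidative phosphorylation genes had 3 of 31 in each direction (median 0.50), from Ndufa4 (-1.68) to Atp5e (1.23). Glycolysis genes had 3 of 13 in each direction (median 0.33), with Slc16a3, a lactate exporter, at -2.02, and hypoxia genes 3 of 7 downward (median 0.25). Immediate early genes had 2 of 14 upward (Egr1, 1.30, median 0.85), heat shock genes 2 of 11 downward (median 0.61) and apoptosis genes 2 of 9 downward (median 0.41). Receptors of survival cytokines had 0 of 8 past the fold (median -0.44).

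Several ratios to cluster 6 were smaller or turned among the cells under 10% mitochondrial, and some, that of Mki67 among them, were larger in size. These are 303 cells of cluster 10 and 83 of cluster 6 (8 to 18 per library). There the counts past the fold were 96 upward and 105 downward. Each sum held few cells, and the part of this in the distance from the 210 and 477 over all cells was not tested. The log2 ratio of Gzmf was -0.92, of Gzmb -0.90 and of Ifng -1.84, and that of Gzma had the opposite sign (0.46). Cd8b1 (0.45), Pdcd1 (0.21), Lars2 (-0.71) and Klra6 (-0.03) also had the opposite sign from the ratios over all cells. The same held for Rps2 (-0.21, from 0.48), Rpl10 (-0.10, from 0.59), Rpl15 (-0.09, from 0.60), Btf3 (-0.29, from 0.53), Slamf6 (-0.50, from 0.19) and Klra7 (-1.35, from 1.81). Tcf7 had a log2 ratio of 0.37 (from 1.51) and Mki67 of -4.42 (from -2.18).

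**Figure D3:**
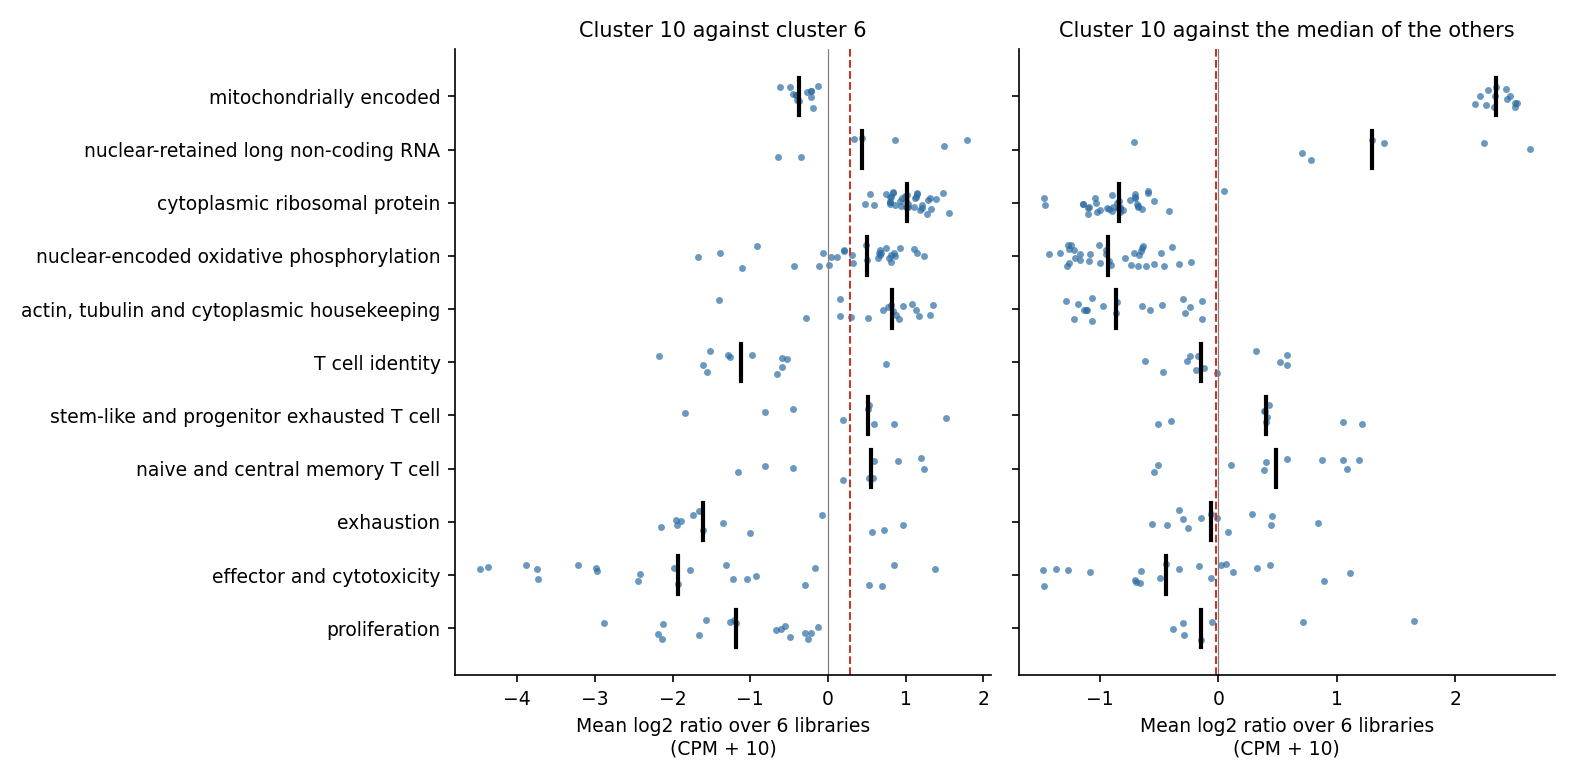
Log2 ratio of cluster 10 to cluster 6 and to the median of the other clusters for the genes of each list measured at 50 CPM or more, 1 point per gene. Ribosomal protein genes lie above 0 against cluster 6 (37 of 37) and below 0 against the median of the others (36 of 37).

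Markers of other cell types the sort could have let through were next, and several of their lists were close to 0. The CD4 and regulatory T cell list summed to 672 ± 153 CPM (1 of 8 genes at 0), against 2443 in cluster 6 and 239 to 1077 in the other 9. Its genes at 50 CPM or more were Ctla4, Tnfrsf18 and Il2ra, which activated CD8 T cells also express, while its defining genes Cd4 and Foxp3 had 0 and 2 UMIs in cluster 10. The summed level of the B cell list was 2.77 CPM (3 of 4 measured genes at 0), of the gamma-delta T cell list 4.66 (4 of 5 at 0) and of the fibroblast and endothelial list 29.3 (8 of 10 at 0). The myeloid list summed to 362 ± 58.1 CPM (3 of 19 at 0), against 1045 in cluster 6 and 188 to 569 in the other 9. The MHC class II list summed to 71.7 CPM, against 122 in cluster 6 and 25.97 to 52.4 in the others. The tumour epithelial list was at 21.1 ± 28.2 CPM (3 of 8 at 0), the highest of the 11 clusters, against 7.40 to 16.8 in the others. Female library 6 alone was at 78.1 CPM. The highest genes of the myeloid list were Ccr2, which T cells also express (152 CPM, and 232 in cluster 6), and Cst3 (103 and 614). At 1000 UMIs per cell, Lyz2 had a UMI in 0.41% of cluster 10 cells and Cd74 in 1.61%. Cd4 and Cd79a had a UMI in 0 of 998 cells each, which by a floor of 3 cells allows a share of cells with a UMI of up to 0.301% at that depth. The natural killer list summed to 965 ± 254 CPM and ranked 7 of 11, with cluster 6 (2586), cluster 8 (2219) and cluster 2 (2115) the highest.

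Within cluster 10 the mitochondrial share of a cell went with different genes, which is a description with bounds chosen after the data were seen. Levels in this paragraph leave mitochondrial genes out of the totals. Of 2047 genes, 191 (9.33%) were past the fold upward in cells at 30% or more against cells under 10%, and 58 (2.83%) downward, around a median of 0.37. Ribosomal protein transcripts, summed over the list, were at 161516 CPM under 10%, 109082 between 10% and 30% and 93879 at 30% or more. The nuclear long non-coding RNAs went the other way, from 38949 to 72426 and 73316 CPM. Ccl5 was at 9513 CPM in cells under 10% and 1871 at 30% or more (-2.40), lower in 6 of 6 libraries. Klra7, an inhibitory receptor of the Ly49 family found on natural killer and some CD8 T cells, was at 18.9 CPM under 10% and 364 at 30% or more (4.09). The Klra7 level under 10% was near the floor and uneven (SD 39.8, 0 to 99.2 CPM by library). At 30% or more it ran from 60.7 to 730 CPM (SD 237). Mki67 (28.0 and 313 CPM) and Lars2 (204 and 925) were higher at 30% or more in 6 of 6 libraries. The T cell identity list summed to 7435, 7812 and 7636 CPM and did not follow the share. Tcf7 was at 106 CPM under 10% and 91.7 at 30% or more, with 2 libraries higher at 30% or more and 4 lower.

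To ask which other cluster each cell resembled, cells were thinned to 800 UMIs outside the mitochondrial genome and matched to the profiles of the other 10 clusters, built from the other 5 libraries. In all 925 cells were deep enough and 212 were left out. Cluster 6 was the best match of 33.4% of the cells, cluster 1 of 29.5%, cluster 0 of 15.6% and cluster 2 of 9.41%, and each other cluster of under 4%. The share matched to cluster 6 differed widely between libraries, at 42.7%, 24.1% and 54.5% in females and 53.03%, 38.5% and 13.9% in males. Of the 210 matched cells at 30% mitochondrial or more, 63.3% fell to cluster 6, and of the 287 under 10%, 6.62% did, with 28.9% to cluster 1, 26.5% to cluster 0 and 19.2% to cluster 2. With ribosomal protein genes, Malat1, Neat1, Lars2 and the 3 gene models left out as well, a set of genes picked with the first matches known, cluster 6 took 11.2%, cluster 1 26.9%, cluster 0 20.8% and cluster 2 20.8%. When the cluster 10 profile itself was offered, 65.6 ± 9.58% of cluster 10 cells matched it, and 88.1% of cluster 6 cells matched cluster 6. Across 5282 genes the mean profile of cluster 10 was most like cluster 1 (Pearson r = 0.879), then cluster 9 (0.873) and cluster 0 (0.863), with 0.803 for cluster 6. These correlations are across genes, which are not independent replicates, and the profiles share their libraries.

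**Figure D4:**
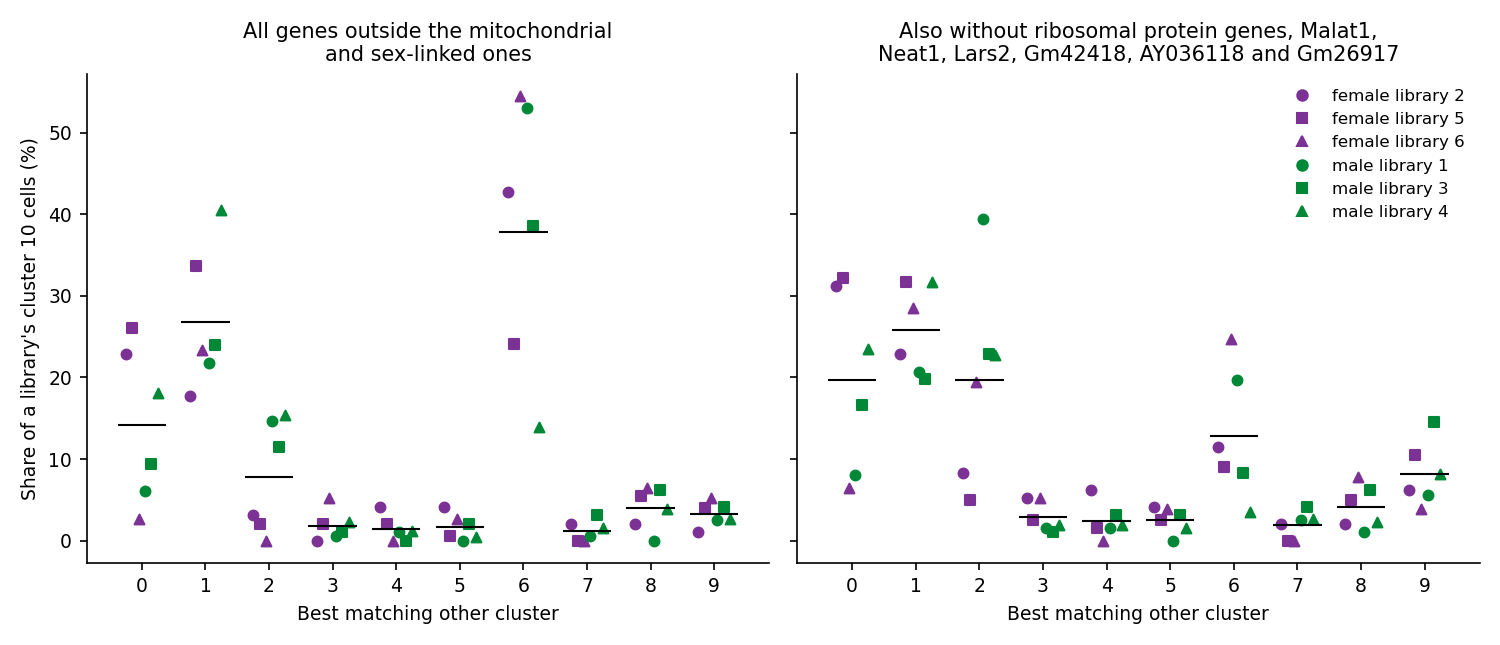
Share of the cluster 10 cells of a library (percent) whose best match was each other cluster, 1 point per library and a bar at the mean of 6 libraries, with 2 sets of genes. Cluster 6 takes 13.9% to 54.5% of a library with all genes outside the mitochondrial and sex-linked ones.

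Single genes were spread unevenly over the cells of cluster 10. Tcf7 had a UMI in 134 cells, whose median depth was 1385 UMIs against 1470 in the rest, and 19.4% of those had one of Pdcd1, which encodes PD-1, against 35.1% of the cells without Tcf7. Havcr2 had a UMI in 9.70% of the cells with Tcf7 and 31.2% of those without, and Gzmb in 52.99% and 65.1%. Slamf6 went the other way, with 20.9% and 13.2%. The median mitochondrial share was 14.8% in the cells with Tcf7 and 21.0% in the rest. By library the cells with Tcf7 numbered 6, 10 and 13 in females and 40, 18 and 47 in males. All libraries were pooled here, and the part of library, sex and mitochondrial share in the differences by Tcf7 was not tested. These pairs of genes were chosen after the data were seen, and at this depth a gene with no UMI in a cell may still be expressed there. Ikzf2, which encodes the transcription factor Helios, had a UMI in 41.0% of the cells with Tcf7 and 25.4% of those without. Ikzf2 was at 383 ± 224 CPM, second to cluster 2 (707), and Klra7 at 99.5 ± 80.1 CPM, second to cluster 2 (396). Klra7 had a UMI in 84 cells, in 20.6% of the 310 cells with Ikzf2 and 2.42% of those without, and Cd8b1 had one in 16.7% of the cells with Klra7 and 50.5% of the others. The median mitochondrial share was 32.6% in the cells with Klra7 and 19.5% in the rest, and its part in these differences was not tested. Male library 1 gave 43 of the 84 cells, 51.5% of the Klra7 UMIs, 52.4% of the Klra6 UMIs and 45.1% of the Ikzf2 UMIs. By library Klra7 was at 20.01, 50.7 and 132 CPM in females and 240.2, 105 and 49.4 in males, and the sexes overlapped.

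The sex comparison asked which genes of cluster 10 differed between male and female hosts, and it is the contrast that was tested. Cluster membership was built from these same genes, and the part of sex in it was not tested. The label genes came first. Xist, the RNA that silences an X chromosome, had 1547 UMIs in the female libraries and 0 in the male ones, at least 742-fold higher in females against a floor of 3 counts over the group. The Y-linked Ddx3y had 0 UMIs in the female libraries and 168 in the male ones (at least 38.9-fold higher in males), and Eif2s3y had 108 (25.03), Kdm5d 46 (10.7) and Uty 42 (9.73). Every library of cluster 10 matched its labelled sex. Cluster 10 made up 4.35 ± 0.534% of the female and 4.07 ± 0.533% of the male libraries (n = 3 each, exact two-sided permutation test, p = 0.5), with a log2 difference of -0.088 (SE 0.221, edgeR adjusted p = 0.696). The median UMIs per cell were 1601 ± 34.96 in females and 1436 ± 127 in males (exact p = 0.1, the smallest that 3 against 3 can give), and the mitochondrial shares 20.8 ± 4.28% and 20.4 ± 6.33% (exact p = 0.9).

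Of 4008 genes tested with edgeR's quasi-likelihood test on counts summed per library, 11 (0.274%) passed a Benjamini-Hochberg adjusted p of 0.05, 6 (0.15%) higher in males and 5 (0.125%) higher in females, and 217 had an unadjusted p under 0.05. Outside the label genes 6 were called, and without female library 5, the deepest of the female sums, 0 were (2 without male library 1, 3 without female library 2, 10 without female library 6, and 2 with DESeq2). Tcf7 (chromosome 11, 52252371 to 52283014) was at 30.02, 33.8 and 78.1 CPM in females and 113, 124 and 125 in males, so that every male library was above every female one. Its log2 difference was 1.44 (SE 0.315, adjusted p = 0.0205), on 36 UMIs in females and 142 in males. Ccr7, a homing receptor of naive and central memory cells, was at 10.0, 24.2 and 39.0 CPM in females and 104, 47.7 and 75.9 in males (log2 difference 1.72, SE 0.388, adjusted p = 0.0252), also with no overlap. Without female library 5 the edgeR adjusted p was 0.699 for Tcf7 and 0.635 for Ccr7, and it passed 0.05 for Tcf7 in 8 of 11 alternative settings and for Ccr7 in 6 of 11, always with the same direction. Cluster 6 had a Tcf7 difference of the same direction, 9.54 CPM in females and 35.8 in males (2.00, SE 0.382, adjusted p = 0.00448). In all other clusters summed, Tcf7 was at 46.95 and 100.5 CPM (1.15, adjusted p = 0.459). The Tcf7 difference of cluster 10 did not pass a test of its difference from cluster 6 (-0.59, unadjusted p = 0.213) or from the other clusters (0.25, unadjusted p = 0.411).

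**Figure D5:**
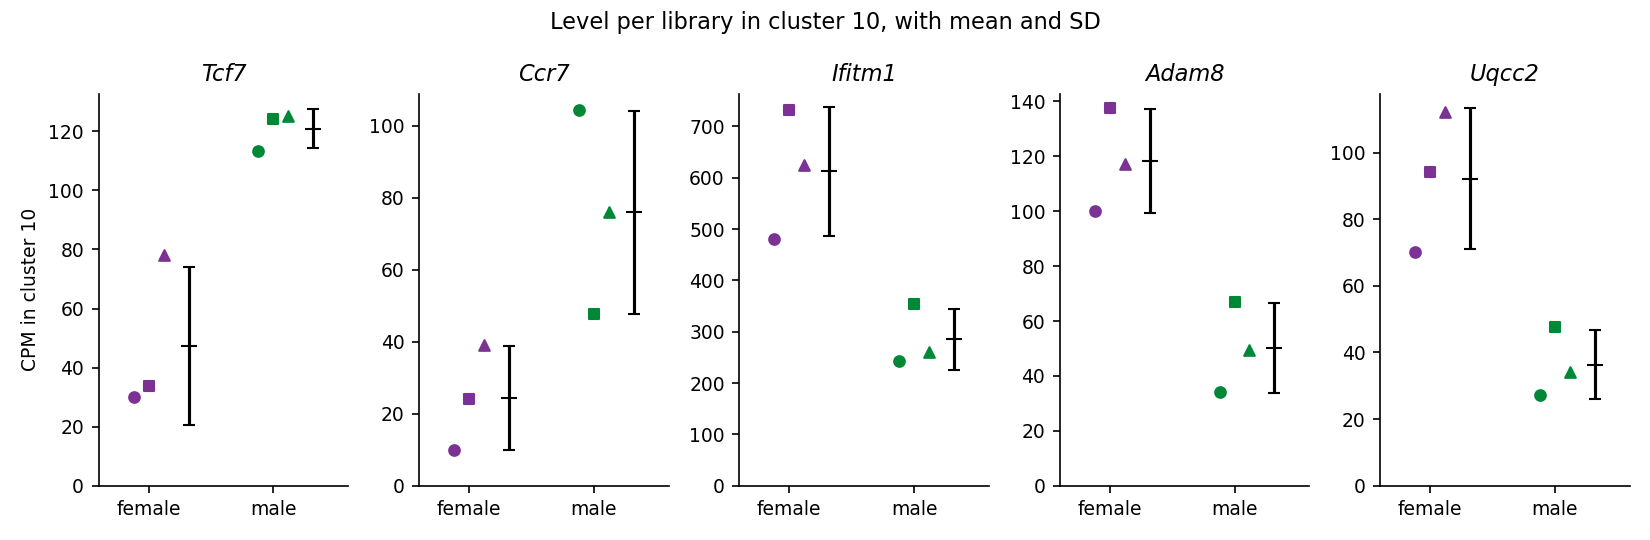
CPM of the 5 called genes outside the sex-linked ones, summed over cluster 10 cells per library, with a bar at the mean of 3 libraries of a sex. The libraries of the 2 sexes do not overlap for any of the 5 genes.

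One composition measure, which had both genes among its inputs, moved with Tcf7 and Ccr7. The share of cells matched to cluster 2, the cluster with the most Tcf7, was 3.13%, 2.01% and 0% in the female and 14.6%, 11.5% and 15.4% in the male libraries (means 1.71 ± 1.58% and 13.8 ± 2.11%, exact p = 0.1, adjusted 0.4 over 4 such comparisons). Since the match used Tcf7 and Ccr7 themselves, this share is not a measure apart from them, and its part in their differences was not tested. In females, Ifitm1, an interferon-induced membrane protein, was higher, at 480.2, 732 and 625 CPM against 242, 353 and 260.1 in males (log2 difference -1.12, SE 0.220, adjusted p = 0.00437). It was also called, in the same direction, in the other clusters summed (-0.95, adjusted p = 0.0411). Adam8, a membrane metalloprotease, was at 100.1, 138 and 117 CPM in females and 34.0, 66.8 and 49.4 in males (-1.32, SE 0.292, adjusted p = 0.0217). Uqcc2, an assembly factor of respiratory complex III, was at 70.0, 94.2 and 112 CPM in females and 27.2, 47.7 and 34.2 in males (-1.40, SE 0.324, adjusted p = 0.0340). Its sex difference was -0.005 in cluster 6 and -0.27 in the other clusters summed. The Uqcc2 difference of cluster 10 did not pass edgeR's test against that of cluster 6 (adjusted p = 0.554) or of the other clusters (adjusted p = 0.806). Without female library 5 the edgeR adjusted p was 0.244 for Ifitm1, 0.608 for Adam8 and 0.386 for Uqcc2. It passed 0.05 in 10 of 12 alternative settings for Ifitm1, 6 of 11 for Adam8 and 5 of 11 for Uqcc2. Tsix, called higher in females (-4.37, adjusted p = 0.00312), overlaps Xist on the opposite strand, so without the strand of counting its reads cannot be told from those of Xist.

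By gene list, naive and stem-like genes lay mostly on the male side and effector and exhaustion genes mostly on the female side, nearly all without a call. Of the 11 tested genes of the stem-like list, 10 were higher in males and 2 called, Tcf7 and Ccr7, with a median log2 difference of 0.715. Of the 10 of the naive and central memory list all 10 were higher, with 1 called and a median of 0.69. The called gene is also in the stem-like list, so the 2 lists are not separate. Over all 4008 genes, 1997 were higher in males and 2011 in females, with a median of -0.001. Of the exhaustion list, 13 of 16 genes were higher in females with 0 called and a median of -0.47, and of the effector and cytotoxicity list 18 of 23 with 0 called and a median of -0.49. The male and female libraries did not overlap for 5 of the 16, 5 of the 23, 3 of the 11 stem-like and 1 of the 10 naive and central memory genes, beside 385 of 4008 genes (9.61%). In female and male libraries Havcr2 was at 352 and 224 CPM (-0.66, edgeR adjusted p = 0.409) and Gzmb at 1868 and 1200.03 (-0.62, adjusted p = 0.812). Slamf6 was at 78.4 and 124 CPM with overlapping libraries (0.72, adjusted p = 0.870). Ribosomal protein genes were higher in males in 35 of 37 with 0 called and a median of 0.29. No difference between the sex effect of cluster 10 and that of cluster 6 passed in edgeR (0 of 6915 genes, 0.0%, with 348 at an unadjusted p under 0.05), nor did one from the other clusters summed (0 of 11534, 0.0%, with 424). The gene nearest the threshold against cluster 6 was Gm26870 (-3.50, adjusted p = 0.103), and 199 of its 202 female UMIs in cluster 10 came from library 6.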

How the data were processed

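Single-cell RNA libraries of tumour CD8 T cells, 3 from female and 3 from male mice, were analysed from a table of UMI counts and a table of cell annotations, both deposited by the authors. Cell Ranger, Seurat and the build mm10 stand in the submitters' processing notes without versions, and the deposited counts are raw whole numbers for 15601 genes. Not given in the sources used here were the filters on cells, the treatment of doublets and the strand of counting, and no doublet caller was run. The library is the number after each barcode and the sex comes from the annotation. The cluster column was used as deposited.

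Counts were summed over the cells of a cluster in a library. Between clusters, log2 ratios of CPM plus 10 were described with no test. Between the sexes, edgeR 4.0.16 in R 4.3.3 was used (quasi-likelihood, filterByExpr, TMM, Benjamini-Hochberg over all genes tested, called under 0.05), with the library as a block in tests between clusters, and exact permutation tests of single values. Log2 differences are male minus female. The smallest p that 3 against 3 libraries allow is 0.1. DESeq2 1.42.0, limma 3.58.1 and other settings were alternatives. The code was tested on simulated data.

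The cells and the 32 gene lists were chosen with earlier results of these data known. Named genes follow a rule: the marker and T cell genes, up to 12 genes per direction with the largest ratios at 50 CPM or more with all libraries on 1 side (gene models and sex-linked genes left out), the sex-linked and called genes, up to 5 genes of each interaction, and up to 4 members per list furthest from cluster 6. Genes named outside it (Ccl5, Havcr2, Ikzf2, Klra7, Malat1, Gm42418, AY036118, Gm26917 and the pairs of genes within cells) were chosen after their values were seen. Intervals cover counting error only. Positions come from GENCODE M21 on the same build.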

Additional observations from a re-analysis of the deposited data

How the results depend on the processing

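No paired analysis was possible because the cell names carry a library number that the sources used here do not tie to the replicate numbers of the labels. Against 11 genes called between the sexes, DESeq2 called 7 and leaving out 1 library gave 3 (without female library 5) to 16, with 5 without male library 1. Outside the label genes 6 were called, 11 with no filter on low counts, 2 with DESeq2 and 0 to 10 with 1 library left out (3 without female library 2, 2 without male library 1). The sex effects of clusters 10 and 6 differed for 0 genes, and for 1, 3 and 1 without female libraries 2, 5 and 6. Against the other clusters 0 differed, 1 in cells under 10% mitochondrial and 1 without female library 5. The log2 difference in the share of cells, -0.088, was 0.036 over cells outside cluster 2 and ran from -0.186 to 0.0093 with 1 library left out. The mitochondrial share, -0.395 points lower in males, had the opposite sign without female library 2 (0.237), female library 6 (1.36) or male library 4 (2.98). The Ddx3x difference of 0.02 was -0.077, -0.256 and -0.047 without female libraries 2 and 5 and male library 1, and -0.0051 with DESeq2.

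Counts past the fold moved with the pseudocount. Higher than the median of the others were 87 genes with 10 CPM added, 155 with 1 CPM, 30 with 50 CPM, 415 without mitochondrial genes in the totals and 28 in cells under 10% mitochondrial. Lower were 219, 329, 75, 35 and 92. Higher than cluster 6 were 210 genes, 318 with 1 CPM, 75 with 50 CPM and 96 in cells under 10% mitochondrial. Lower were 477, 255 with 50 CPM and 105 in those cells. Among ratios past the fold over all cells, the log2 ratio to cluster 6 turned in those cells for Cd8b1 (0.446), Gzma (0.462), Klra6 (-0.035), Lars2 (-0.712) and Pdcd1 (0.206). So did the ratio of Klra7 to the median of the others (-0.544). Some of the ratios to cluster 6 that turned for other named genes, ribosomal protein genes among them, are given in the Results. Over all alternative settings, the highest ratio to cluster 6 was 0.0996 for mt-Co1, 0.0858 for mt-Co2 and 0.261 for mt-Nd2. It stayed negative for mt-Co3 (-0.0752) and mt-Atp6 (-0.0709). The ratios of Mpc1, Ndufa8 and Slc25a5, negative over all cells, reached 0.178, 0.114 and 0.126. As means of the library shares, 54.2% of cells matched cluster 1 without cluster 6 as a candidate (26.8% with it). Without ribosomal protein and the 6 other genes, again as means of the library shares, 19.7% matched cluster 2 (7.78% with them) and 12.8% cluster 6 (37.8% with them). The causes were not tested. The sex sums of cluster 10 held 199900 to 526833 UMIs, so genes of low level rest on few UMIs.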
